A study of Mus musculus with 3 samples.

Results

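Aminoacyl-tRNA synthetases are the enzymes that load each tRNA with its amino acid before the ribosome uses it. Their nuclear genes were followed here in bone marrow-derived dendritic cells (BMDC). Of the 36 genes chosen by name, 20 encode enzymes of the cytosol and 16 encode enzymes that work in mitochondria, and 34 of the 36 had a probe set naming no other gene, 18 cytosolic and 16 mitochondrial, among 19938 genes measured. Aars, for alanine, shared its probe set with Exosc6 and was not measured, and for Dars, for aspartate, no listed probe set was found. The cells came from marrow of C57BL/6J mice and were cultured for 9 days with murine GM-CSF (20 ng/ml) and murine IL-4 (20 ng/ml). There were 3 Affymetrix whole-transcript arrays in 1 group, with no contrast of treatment, genotype or time. The labels do not say whether the arrays stand for separate mice or cultures, so a spread between them may be technical.

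As background, a cell needs a cytosolic synthetase for every amino acid and a second set for protein synthesis inside mitochondria, and most of the mitochondrial enzymes have genes of their own. Exceptions are Gars, for glycine, and Kars, for lysine, which each serve both compartments from 1 gene and stand with the cytosolic enzymes here. Several cytosolic enzymes are held in a multisynthetase complex. When amino acids run short or the endoplasmic reticulum is stressed, cells make more of the transcription factor ATF4, which acts on genes of amino acid uptake and synthesis and on part of the cytosolic synthetase genes. In dendritic cells and macrophages Wars, for tryptophan, is also known as a gene induced by interferon-gamma.

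The values are log2 expression made by the authors with RMA, which normalizes the arrays and combines the probes of each probe set into 1 level per array. A gene was called above background where it exceeded, in every array, the 95th percentile of 1210 probe sets of olfactory and vomeronasal receptors, which lay at 5.54, 5.54 and 5.55 log2 units in replicates 1, 2 and 3. All 8 BMDC markers checked (among them Cd74, Csf1r and Mrc1) passed this limit. Identical values are common in the deposited table. In 46.5% of the genes above background the 3 arrays carried the same number to the last digit, so an SD of 0 is no measure of precision. Only 3 arrays were made, which limits the precision of every value.

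All 18 measured cytosolic synthetases were above background, against 60.5% of all genes. Their means over the arrays lay between 6.97 and 10.01, with a median of 8.32 log2 units, and 16 of the 18 exceeded 7.43, the median of all genes above background. Rars, for arginine, had 10.03, 9.98 and 10.03 in replicates 1, 2 and 3, the strongest signal of the set. Wars had 9.83, 9.92 and 10.04, and Nars, for asparagine, had 9.69, 9.55 and 9.58. These signals stood near the top of the table, at the 95.5th, 95.1st and 93.4th percentiles of all genes. At the lower end Tars, for threonine, had 7.004, 6.95 and 6.95, and Hars, for histidine, had 7.42 in every array.

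All 16 mitochondrial synthetases were above background as well. Their means lay between 5.75 and 8.40, with a median of 6.62 log2 units, and 3 of the 16 exceeded 7.43. These were Iars2, for isoleucine, with 8.39, 8.39 and 8.43 in replicates 1, 2 and 3, Rars2 with 7.73, 7.73 and 7.89, and Tars2 with 7.74, 7.74 and 7.84. The lowest were Ears2, for glutamate, with 5.95, 5.95 and 6.02, and Pars2, for proline, with 5.61, 5.93 and 5.71, which is close to the limit in replicates 1 and 3. A stricter limit, the 99th percentile of these receptor values, was passed by 46.2% of all genes. Under it all 18 cytosolic and 14 of the 16 mitochondrial enzymes remained, and Ears2 and Pars2 were the exceptions. The medians of the sets, 8.32 for the cytosolic and 6.62 for the mitochondrial enzymes, differed by 1.70 log2 units. Probe sets bind with different strength, so that difference is one of array signals and gives no ratio of transcripts.

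**Figure D1:**
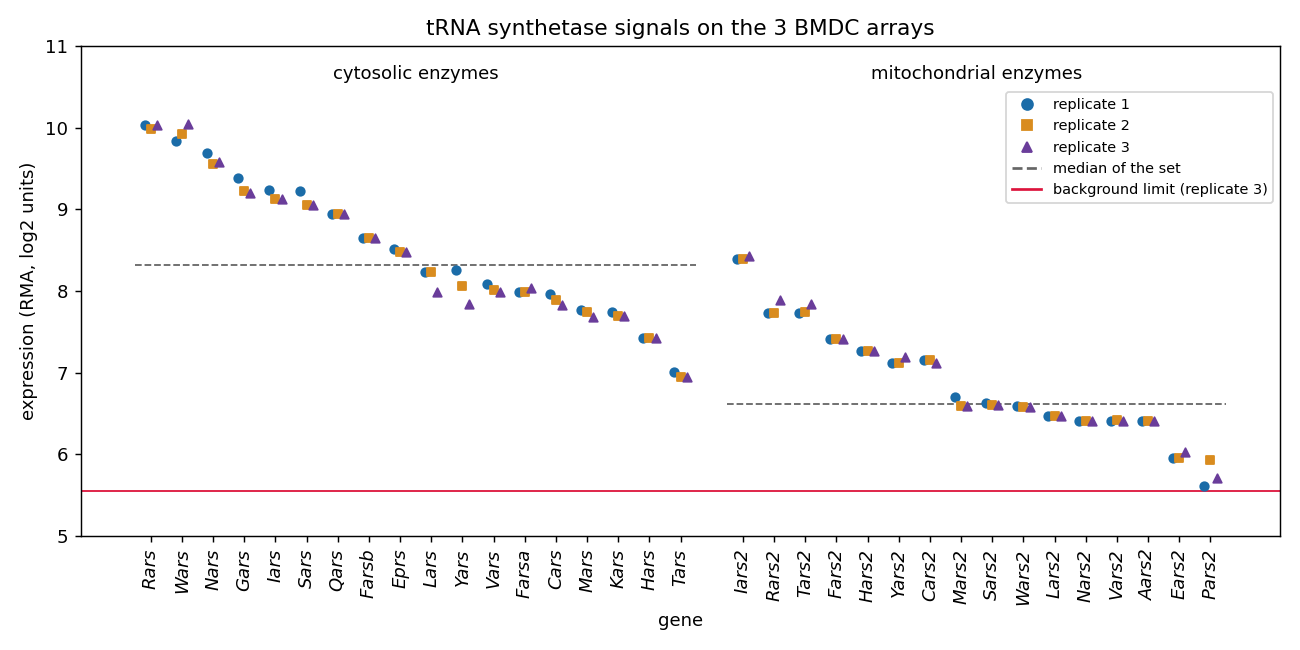
Expression in log2 units (vertical axis) of the 34 measured synthetase genes (horizontal axis), 1 symbol per replicate array, cytosolic enzymes on the left and mitochondrial on the right, each ordered by mean. Dashed lines mark the set medians of 8.32 and 6.62, and the solid line marks the background limit of 5.55 in replicate 3, which every gene exceeded.

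Iars, for isoleucine, is the only member with more than 1 probe set, and the choice matters for it. The probe set taken by the rule of the highest mean (10345025) had 9.24, 9.12 and 9.12 in replicates 1, 2 and 3, and the other (10405094) had 8.81, 8.70 and 8.58. Of the 4 annotated probe sets nearest in number to 10405094, 2 name genes within 4 places of Iars in RefSeq, Nol8 and Ogn, while 0 of the 4 nearest to 10345025 do. Which locus the first probe set measures is uncertain, so both are given for differences between arrays too.

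Promoter windows show what part of the set shares in sequence. RefSeq windows of GRCm38.p6, from 250 bases before to 50 bases after a gene's start, were at hand for 13 cytosolic and 14 mitochondrial genes. The composite C/EBP-ATF motif, the letters TGATGCAA or their reverse complement TTGCATCA on either strand, is the type of element through which ATF4 and its C/EBP partners act. It was found in 4 of the 13 cytosolic genes, Aars, Iars, Tars and Yars, the last for tyrosine. It was found in 0 of the 14 mitochondrial genes and in 1.03% of the 27025 genes with a window (0.895% of 32851 windows). With any base in the sixth place (TGATGNAA), Gars was added, which made 5 of 13 cytosolic genes, 0 of 14 mitochondrial genes and 4.51% of all genes. All 5 belong to the 8 genes with a window in the group that general knowledge of ATF4 targets links to this factor. None of the 5 other cytosolic genes with a window had a match, but 5 genes are few at a share of 4.51%. Cars, Lars, Nars, Vars and Wars of the linked group had no window. Knowledge of ATF4 targets may itself rest on such motifs, so the overlap is not independent support. The windows of these 5 genes are shown because they carry the motif, with TGATGNAA or its reverse complement in capitals.
Aars, chr8:111033592-111033891, plus strand: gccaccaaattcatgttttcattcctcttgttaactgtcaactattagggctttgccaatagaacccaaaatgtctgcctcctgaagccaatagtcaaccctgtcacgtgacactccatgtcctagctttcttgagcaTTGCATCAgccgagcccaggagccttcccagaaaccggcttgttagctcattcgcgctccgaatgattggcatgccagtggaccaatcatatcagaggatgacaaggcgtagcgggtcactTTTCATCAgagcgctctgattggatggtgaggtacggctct
Iars, chr13:49681880-49682179, plus strand: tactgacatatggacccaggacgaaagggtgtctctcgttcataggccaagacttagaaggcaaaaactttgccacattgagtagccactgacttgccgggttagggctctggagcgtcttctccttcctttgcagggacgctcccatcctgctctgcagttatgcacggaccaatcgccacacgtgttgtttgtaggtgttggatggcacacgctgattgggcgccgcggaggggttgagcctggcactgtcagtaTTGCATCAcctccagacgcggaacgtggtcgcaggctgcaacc
Tars, chr15:11399609-11399908, minus strand: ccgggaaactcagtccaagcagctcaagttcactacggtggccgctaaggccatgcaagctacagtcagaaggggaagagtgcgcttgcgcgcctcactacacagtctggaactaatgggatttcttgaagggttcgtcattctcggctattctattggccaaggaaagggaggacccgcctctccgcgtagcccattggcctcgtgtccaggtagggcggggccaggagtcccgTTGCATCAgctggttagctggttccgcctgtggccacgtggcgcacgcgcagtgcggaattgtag
Yars, chr4:129189653-129189952, plus strand: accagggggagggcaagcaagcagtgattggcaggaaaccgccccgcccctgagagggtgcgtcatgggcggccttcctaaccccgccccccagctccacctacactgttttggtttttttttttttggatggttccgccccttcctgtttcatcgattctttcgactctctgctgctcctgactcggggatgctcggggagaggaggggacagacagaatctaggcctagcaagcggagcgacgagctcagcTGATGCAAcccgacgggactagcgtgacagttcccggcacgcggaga
Gars, chr6:55037751-55038050, plus strand: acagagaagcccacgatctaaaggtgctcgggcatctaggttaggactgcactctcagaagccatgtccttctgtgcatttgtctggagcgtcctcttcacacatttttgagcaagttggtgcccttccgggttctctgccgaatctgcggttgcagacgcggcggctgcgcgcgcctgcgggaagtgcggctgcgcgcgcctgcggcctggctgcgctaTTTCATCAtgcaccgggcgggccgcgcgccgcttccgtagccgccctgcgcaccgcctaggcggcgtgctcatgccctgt

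The matches lay close to the start site in most of these windows. Counting the start as 1, the first base of the motif was at 8 in Iars, 4 in Yars, -15 in Tars and -30 in Gars. Aars had a match of the strict form from -112 and one of the looser form from 10. The looser form was also found in 8 of the 23 genes with a window among other genes of the ATF4 program. Replicate 3 minus replicate 1 was -1.43 log2 units in Asns, -0.55 in Chac1, -0.41 in Nupr1, -0.25 in Pck2 and -0.24 in Trib3. It was 0.02 in Slc7a11 and 0 in Vldlr, which was below background, and Pycr1 was not measured. Genes with a match were thus not all lower in replicate 3. A match is a string of letters and not evidence that a factor binds there, and members without a match may carry other forms.

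Motifs of factors that serve many housekeeping and mitochondrial genes were found in both sets or depended on the letters searched, while the E-box lay mostly in cytosolic genes. The ETS motif CCGGAAG, on either strand, was in 5 of 13 cytosolic genes (Farsa, Gars, Kars, Mars and Sars) and 4 of 14 mitochondrial genes (Cars2, Mars2, Rars2 and Sars2), against 9.93% of all genes. NRF1, a factor of nuclear genes for mitochondria, was searched in the form GCGCATGC, on either strand, which was in 0 of 13 cytosolic genes and 3 of 14 mitochondrial genes (Rars2, Vars2 and Wars2), against 3.05% of all genes. In a looser form, GCGC followed by any base and TGCGC, it was in 3 of 13 cytosolic genes (Farsb, Kars and Tars) and 2 of 14 mitochondrial genes (Iars2 and Mars2), against 5.19% of all genes. The E-box CACGTG, to which MYC and related factors bind, was in 4 of 13 cytosolic genes (Aars, Farsb, Iars and Tars), or 30.8%. Among the mitochondrial genes it was in Ears2 (7.14%), against 8.09% of all genes. Aars, Iars and Tars also carry the composite motif, so that motif was not alone in favouring the cytosolic set. None of these motifs overlapped a composite motif. The window of Rars2, the mitochondrial member that differed most between replicates 3 and 1, is shown with its ETS match, from -4, in capitals.
Rars2, chr4:34614707-34615006, plus strand: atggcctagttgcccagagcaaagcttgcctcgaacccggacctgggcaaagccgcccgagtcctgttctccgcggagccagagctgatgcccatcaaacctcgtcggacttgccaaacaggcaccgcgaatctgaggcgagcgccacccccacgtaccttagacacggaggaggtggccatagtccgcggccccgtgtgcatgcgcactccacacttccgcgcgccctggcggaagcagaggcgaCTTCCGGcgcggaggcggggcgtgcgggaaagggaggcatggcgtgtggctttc

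**Figure D2:**
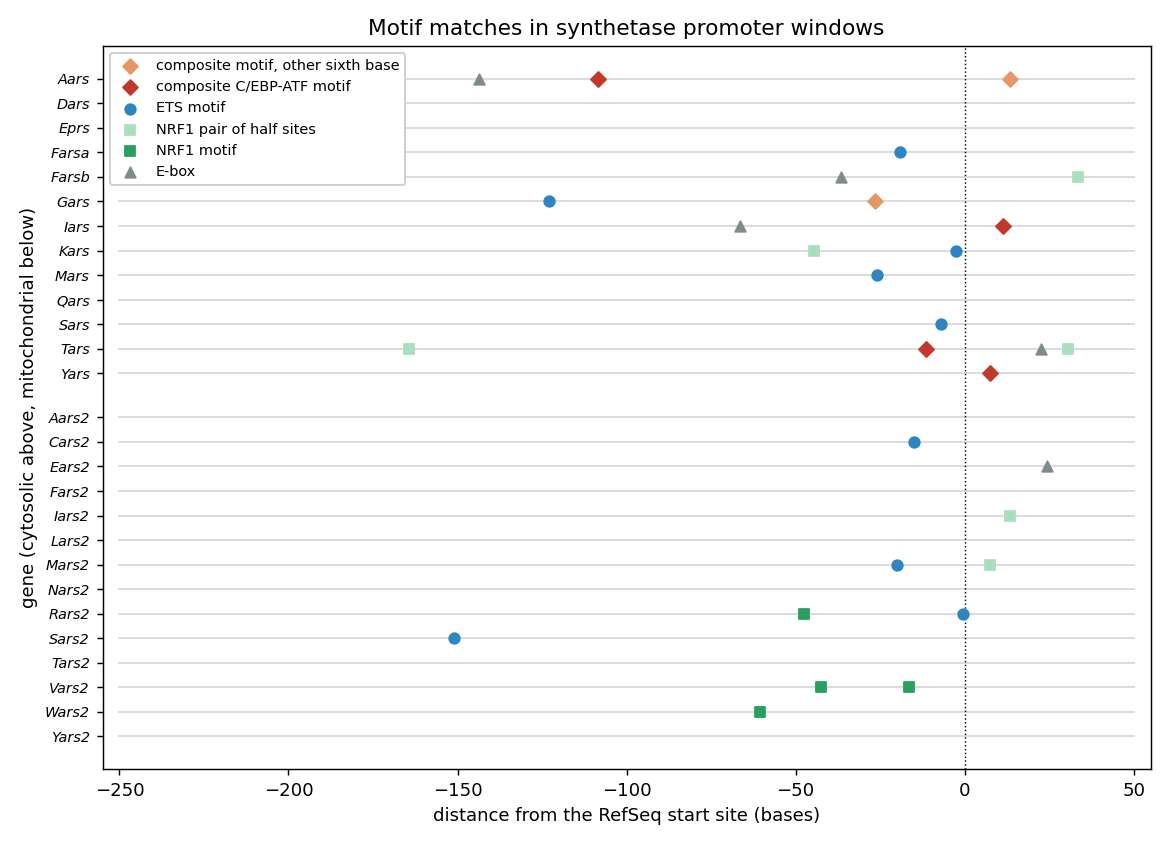
Distance of motif matches from the RefSeq start site in bases (horizontal axis) for the 13 cytosolic and 14 mitochondrial genes with a window (vertical axis; Aars2 has 2 windows). The composite motif (diamonds) appears in 5 cytosolic and 0 mitochondrial genes, while ETS matches (circles) appear in both sets and NRF1 matches (squares) in 3 cytosolic and 5 mitochondrial genes over both forms.

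More cytosolic than mitochondrial enzymes were lower in replicate 3 than in replicate 1. A difference between arrays within 1 probe set does not depend on its binding strength. Replicate 3 is set against replicate 1 here, with replicate 2 given beside them. This pair was chosen because these arrays were the least alike over all probe sets. The choice thus rests on these same data, and the pair is not a neutral one. Replicate 3 was lower than replicate 1 in 12 of 18 cytosolic genes, higher in 3 and equal in 3. It was lower in 4 of 16 mitochondrial genes, higher in 6 and equal in 6. Of all genes above background 25.6% were lower, 24.2% higher and 50.2% equal. The median difference, replicate 3 minus replicate 1, was -0.07 log2 units for the cytosolic enzymes, 0 for the mitochondrial enzymes and 0 for all genes above background. With 1 array on each side there is no test of these differences, and all of them are small.

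Within the cytosolic set the lower values lay almost wholly among the 12 measured genes linked to ATF4. Of these 12, replicate 3 was lower than replicate 1 in 11 (91.7%) and higher in Wars. Of the 6 other cytosolic genes it was lower in Kars, higher in 2 and equal in 3. The median difference was -0.11 log2 units in the linked genes and 0 in the others. Lower by more than 0.2 log2 units were Yars and Lars and 0 of the mitochondrial genes, against 7.05% of all genes above background, and lower by more than 0.1 were 7 of the 12 linked genes and 0 of the 6 others, against 12.5% of all genes above background. Wars was the only cytosolic gene higher by more than 0.2 log2 units, against 4.11% of all genes above background. The linked genes are those that general knowledge of ATF4 targets names, but the list was made with other results of these arrays known, so the split is a description and not independent support.

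Yars differed most, with 8.25, 8.06 and 7.84 in replicates 1, 2 and 3, a difference of -0.41 log2 units or 1.33-fold between replicates 1 and 3. Lars, for leucine, had 8.23, 8.23 and 7.99 (-0.24). Gars had 9.38, 9.22 and 9.20 (-0.18). In Yars the 3 arrays were all apart, in Lars replicate 3 stood alone below a pair of identical values, and in Gars replicate 1 stood above the other two.

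Replicate 1 was also the high array in Sars, Cars and Nars. Sars, for serine, had 9.23, 9.06 and 9.06 (-0.17), Cars, for cysteine, had 7.96, 7.88 and 7.82 (-0.13), and Nars differed by -0.11. Iars differed by -0.12 in the probe set chosen and by -0.23 in the other. The remaining linked genes were closer. Vars, for valine, differed by -0.09, Mars, for methionine, by -0.08, Tars by -0.05, and Eprs, the joint enzyme for glutamate and proline, by -0.03. Wars went the other way, with a difference of 0.20 log2 units and its highest value in replicate 3.

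Of the cytosolic enzymes outside the linked group, 3 had 1 value in all arrays. These were Farsb, a subunit of the phenylalanine enzyme, at 8.65, Hars at 7.42 and Qars, for glutamine, at 8.95. Farsa, the partner subunit of Farsb, had 7.99, 7.99 and 8.04, Kars had 7.74, 7.70 and 7.70, and Rars differed by 0.0016 log2 units between replicates 3 and 1. Split by membership of the multisynthetase complex, the values were closer together. Replicate 3 was lower in 5 of 7 measured complex enzymes, with a median difference of -0.04 log2 units, and in 7 of 11 enzymes outside it, with a median of -0.09.

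The counts of any difference rest mainly on replicate 1. Of the 2 genes lower by more than 0.2 log2 units, Lars was lower in replicate 3 alone, while Yars was lower at each step. Replicate 2 was lower than replicate 1 in 12 of 18 cytosolic genes and higher in 1, with a median difference of -0.05 log2 units. Of the 12068 genes above background, 2340 were lower in replicate 2 than in replicate 1 and 2124 higher. Replicate 3 was lower than replicate 2 in 6 of the 18 cytosolic genes and higher in 4, with a median of 0. Of the 12068 genes, 2783 were lower in replicate 3 than in replicate 2 and 2678 higher. By more than 0.2 log2 units, replicate 3 was lower than replicate 2 in Yars and Lars, and replicate 2 was lower than replicate 1 in 0 cytosolic genes. For Yars the limit decides this, with -0.19 from replicate 1 to 2 and -0.22 from replicate 2 to 3. The shares of all genes beyond 0.2 log2 units were not computed for these pairs. Of the cytosolic genes, 11 of 18 were highest in replicate 1 alone, against 15.6% of all genes above background, and 3 of 16 mitochondrial genes were. Highest in replicate 3 alone were 3 cytosolic and 5 mitochondrial genes, against 19.4% of all genes above background.

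Mitochondrial synthetases varied less than the cytosolic ones and in both directions, but not less than genes at large. Their median SD was 0.016 log2 units, against 0.045 for the cytosolic enzymes and 0.0055 for all genes above background. Aars2 (6.40), Fars2 (7.41), Hars2 (7.27), Lars2 (6.47) and Nars2 (6.41) each had 1 value in all arrays. They are 31.25% of the set, against 46.5% of all genes above background. Mars2 was the only member lower in replicate 3 than in replicate 1 by more than 0.1, with 6.70, 6.595 and 6.595 (-0.10). Replicate 3 exceeded replicate 1 by 0.16 log2 units in Rars2, followed by Tars2 at 0.102, Pars2 at 0.097, Ears2 at 0.07, Yars2 at 0.06 and Iars2 at 0.04. Higher by more than 0.1 were thus Rars2 and Tars2, against 9.79% of all genes above background. Pars2 spanned 0.31 log2 units, with its highest value in replicate 2. The other members, Cars2, Sars2, Vars2 and Wars2, differed between replicates 3 and 1 by -0.04, -0.01, 0 and -0.01.

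**Figure D3:**
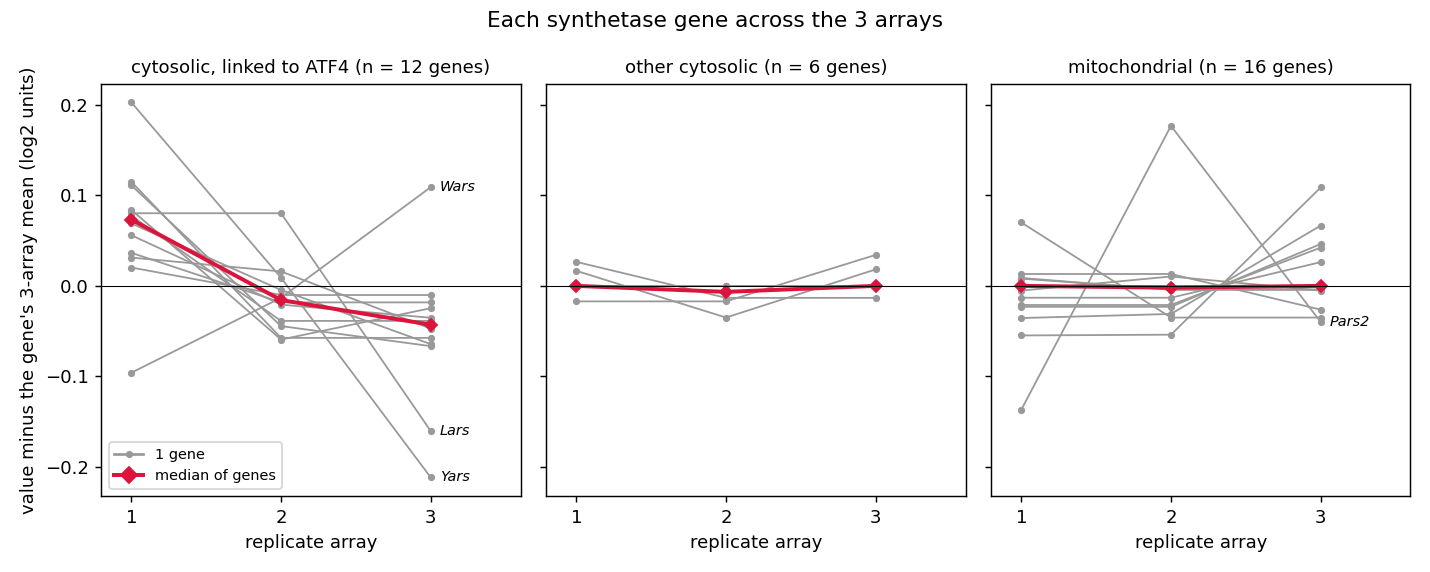
Value of each gene minus its own 3-array mean in log2 units (vertical axis) in replicates 1, 2 and 3 (horizontal axis), with thin lines joining the values of 1 gene and thick lines the median, for 12 cytosolic genes linked to ATF4, 6 other cytosolic genes and 16 mitochondrial genes. Replicate 1 is high in the first panel except for Wars, and the medians of the other panels stay near 0.

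Genes that work beside the synthetases had small differences. Among the scaffold genes of the complex, Aimp1 had 6.92, 6.90 and 6.89 in replicates 1, 2 and 3, Aimp2 had 7.46, 7.43 and 7.20, and Eef1e1 had 9.04, 9.01 and 9.04. Xpot, which carries tRNA out of the nucleus and is an ATF4 target, had 8.62, 8.53 and 8.52. On the mitochondrial side, Qrsl1 (5.90), Gatb (6.87) and Gatc (8.96), the subunits that make glutaminyl-tRNA without a separate synthetase, had identical values in the arrays. Mtfmt, which formylates the initiator tRNA, had 7.69, 7.69 and 7.88.

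The ATF4 program outside the synthetases differed in the same direction and by more. Replicate 3 was lower than replicate 1 in 17 of its 24 measured genes, higher in 3 and equal in 4, with a median difference of -0.17 log2 units, and 12 of the 24 were lower by more than 0.2. Asns, asparagine synthetase, had 8.88, 8.17 and 7.45 in replicates 1, 2 and 3, or 2.70-fold between replicates 1 and 3. Slc7a5, a transporter of large amino acids including tyrosine and leucine, had 9.43, 9.01 and 7.63, and Psat1, of serine synthesis, had 8.23, 7.95 and 7.73. In these 3 genes each array stood apart, with replicate 3 lowest. Chac1, which breaks down glutathione, had 7.11, 6.86 and 6.56, and Trib3, a pseudokinase induced by ATF4, had 6.83, 6.59 and 6.59. Not all members differed. Atf4 itself had 8.20, 8.17 and 8.19, and Ddit3 (7.72), the factor CHOP, and Cebpg (7.85) were identical in the arrays. ATF4 is controlled largely through translation of its mRNA, which an array does not measure.

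Other lists put the size in context. Of 12 ER chaperones and XBP1 targets 11 were lower in replicate 3 than in replicate 1, with a median difference of -0.41 log2 units, Manf (8.26, 8.11 and 7.70) and Sdf2l1 (10.62, 10.49 and 10.08) most and Edem1 (10.36, 10.36 and 10.31) and Sel1l (9.59 in each) least. Of 10 MYC and nucleolar genes 7 were lower, with a median of -0.04, and Myc had 9.32, 9.34 and 8.95. Of 9 measured cytosolic translation factors 4 were lower and 5 equal, with a median of 0. Eef1a1, which brings loaded tRNA to the ribosome, had 12.83, 12.70 and 12.48. Mitochondrial translation factors, with 1 of 9 lower, and mitochondrial ribosomal proteins, with 17 of 77 lower and 20 higher, also had medians of 0. So did the mitochondrial synthetases and the cytosolic synthetases outside the linked group. Of 8 measured interferon-gamma response genes 6 were above background, of which 2 were lower in replicate 3 and 4 higher, while the 2 others, Cxcl10 and Ido1, were lower. Irf1, an interferon-gamma target, had 10.33, 10.52 and 10.61 and so went the way of Wars, while Cxcl9 had 6.28, 5.88 and 5.79.

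**Figure D4:**
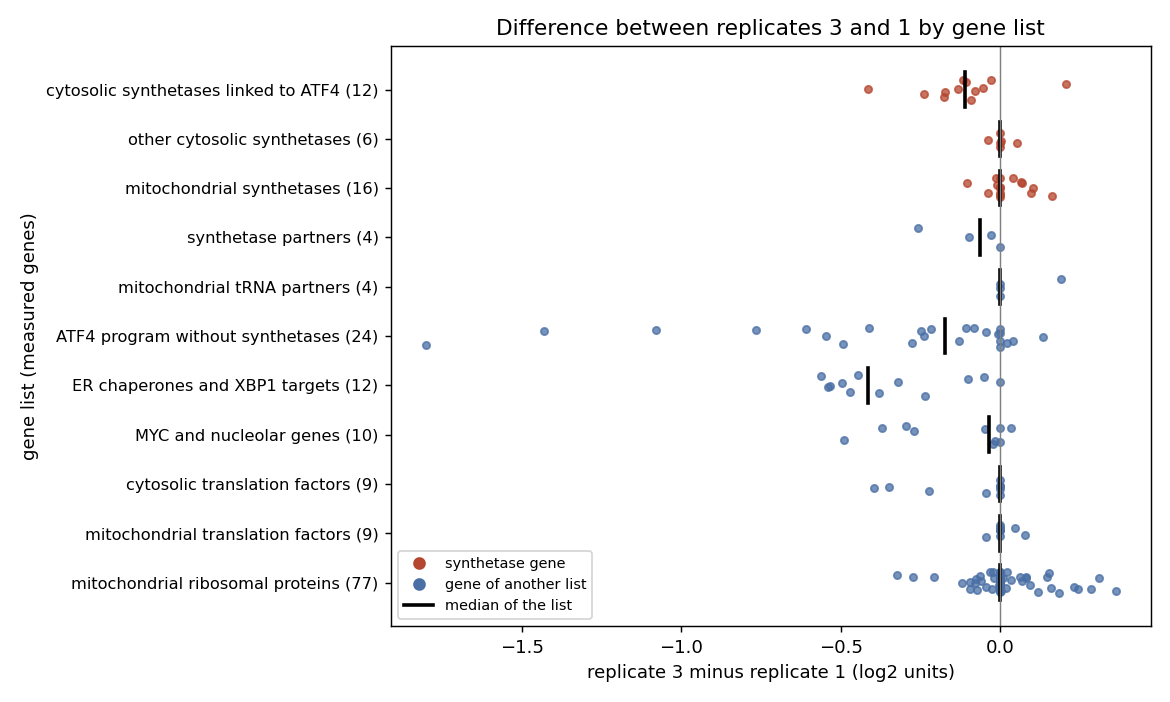
Replicate 3 minus replicate 1 in log2 units (horizontal axis) for each measured gene (points) of 11 gene lists (vertical axis), with a bar at the list median. Cytosolic synthetases linked to ATF4 have a median of -0.11, the ATF4 program -0.17 and the ER list -0.41. The 4 lists of mitochondrial genes, the other cytosolic synthetases and the cytosolic translation factors have medians of 0.

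Markers of dividing cells and of other cell types moved between the same arrays. All 11 measured cell cycle genes were lower in replicate 3 than in replicate 1, with a median difference of -0.74 log2 units, and their summed linear signal was 2979, 2458 and 1676 in replicates 1, 2 and 3. All 7 T and NK cell markers were above background and lower in replicate 3, with sums of 6386, 4875 and 2801. Stromal markers had sums of 1245, 398 and 421, with 7, 3 and 4 of 7 above the limit of the array. Dcn, a stromal proteoglycan, had 8.12, 5.36 and 5.41, so some of these signals were high in replicate 1 and at background in another array. Neutrophil markers had sums of 708, 540 and 288, with 6, 6 and 3 of 7 above the limit, and mast cell and basophil markers 718, 827 and 343, with 5, 5 and 3 of 7. Sums of B cell markers were 173, 172 and 158, with 2 of 4 above the limit in each array. The BMDC markers had 27655, 27339 and 26770, the cytosolic synthetases 8024, 7696 and 7732, and the mitochondrial synthetases 2119, 2124 and 2170. The sum hides differences among the 8 BMDC markers, of which 4 were lower in replicate 3 than in replicate 1, 1 higher and 3 equal. Lower by more than 0.2 log2 units were 3 of the 8, Mrc1 most at -0.43, against 7.05% of all genes above background. The part of other cells, or of dividing cells, in the synthetase differences was not tested, and in bulk RNA fewer cells of a type and less RNA per cell cannot be told apart.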

How the data were processed

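Per the labels' protocols, marrow cells were plated at 2000000 per well, Trizol was used to isolate RNA, and 150 ng per array was amplified and labelled with biotin. The deposited values are log2 expression per probe set that the authors made with RMA, per the submitters' processing notes. The software, its version and a genome build are "not given in the sources used here". The array medians were 5.91, 5.91 and 5.91.

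By the platform annotation, 21789 of 35556 probe sets name 1 gene, 1621 name more (used for no gene) and 12146 are unnamed here. For each of 19938 genes the probe set of highest mean was used, and Mars is listed as Mars1. Members were the 36 genes of the rule. Other genes were named where they had the 2 largest or the 2 smallest differences of their list or were ATF4 program genes listed by name; lists of up to 4 genes were named whole. Dcn, Cxcl10 and Ido1 were named after their values were seen. ATF4 program genes with a match of the looser composite motif were all named, also after their values were seen. The members and the 22 lists were chosen with earlier results of these data known. The labels give 1 group, so no test was made: counts and medians stand beside those of all genes above background. Calls and differences were computed with pandas (2.3.3), and their rules were tried on simulated data. Those data held no identical values, and the expressed genes simulated for the background call lay far above the limit. Calls near the limit and the effect of identical values were thus not tested. Promoter windows are from RefSeq and were searched on both strands. Alternatives covered the background limit, the probe set choice, array centring, the limit on differences and each array left out.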

Additional observations from a re-analysis of the deposited data

How the results depend on the processing

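Of 67 values recomputed under 13 alternative settings, 58 moved by less than the spread between arrays (for counts, by no more than 1.5 times). The other 9 moved by more and 0 changed sign. Many of the 58 could not move, so their number is no measure of stability. Every member was above background, and a change of probe set could alter only Iars. The spread is also a wide limit. For the cytosolic median difference it was 0.065 log2 units, against a difference of -0.067. With a limit of 0.1 log2 units in place of 0.2, the number of genes lower in replicate 3 than in replicate 1 was 7 cytosolic and 1 mitochondrial, and with 0.5 it was 0 cytosolic. Over the pairs that leave out replicate 1 or replicate 3, it was between 0 and 2 cytosolic and between 0 and 1 mitochondrial. Over the same pairs the median difference of the cytosolic enzymes, and its difference from the mitochondrial median, lay between -0.046 and 0 log2 units. With only the members whose values differ between arrays, cytosolic minus mitochondrial was -0.13 and the mitochondrial median was 0.039, since genes at 0 are left out. The other Iars probe set, an alternative chosen after seeing the data, left the cytosolic medians as they were and made 3 genes lower by over 0.2. No paired analysis was possible because there is 1 group. The 3 arrays and the many identical values limit every difference, and no difference between arrays has a test.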
